A study of Mus musculus with 4 samples.

Results

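Cluster 6 is 1 of the 17 chromatin clusters that the authors drew on single PB3 cells, a mouse mammary tumor line, and it consists almost wholly of cells that received no drug. Its members were the untreated cells that carry the number 6 in the authors' cluster column. They numbered 2831, with 1420 in the library made by single-cell ATAC-seq (scATAC, run 1) and 1411 in the ATAC library of a single-nucleus multiome assay (run 3). The deposited table held 43782 cells, of which 18944 were untreated. The other groups were PB3 cells given 500 nM eribulin, a microtubule inhibitor, for 72 h with 48 h of recovery in 4 rounds, again with 1 library per protocol. All groups shared the same culture medium and the same cell line, so the cluster describes variation within 1 line in culture. Each group was 1 library and cells are not replicates, so no test was made. Protocol and sequencing run coincide and cannot be told apart. Intervals are exact 95% binomial (Clopper-Pearson) intervals that cover counting error only.

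ATAC-seq uses the Tn5 transposase, which cuts DNA where it is not wrapped or otherwise covered, so that cut sites pile up at promoters, enhancers and other open elements. A chromatin cluster is a set of cells that share open elements, and within a clonal tumor line such sets can be passed on through cell division. A lineage barcode is a short DNA tag placed in a cell's genome, usually by a lentivirus. Every descendant of the tagged cell carries it, so that a barcode read in the same cell as its open chromatin tells which family the cell belongs to. Only totals per cell were analysed here, and no single gene or peak, so cluster 6 is named by its number and was checked against its label by treatment. Of the 2864 cells of the cluster in all libraries, 98.8% were untreated, 7 came from the eribulin scATAC library and 26 from the eribulin multiome library.

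Some of the lineages named in the later sections are shown first by their barcodes. Each barcode has 48 bases, a short part of 14 bases, the linker tggt at bases 15 to 18 and a long part of 30 bases, and a lineage is named by the numbers of its short and long part. The long part is in capitals. Sequences are given as in the authors' list of designed barcodes. The first 5 had the most cells in cluster 6 among lineages with over 50% of their cells there. The next was the only one of these lineages also seen after eribulin, and the last was a lineage frequent after eribulin.
50-60095: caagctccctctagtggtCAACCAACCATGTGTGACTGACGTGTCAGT
30-58918: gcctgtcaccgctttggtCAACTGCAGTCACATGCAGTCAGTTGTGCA
55-68976: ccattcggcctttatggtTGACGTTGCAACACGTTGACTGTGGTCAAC
6-94927: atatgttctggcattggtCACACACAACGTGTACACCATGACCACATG
21-28628: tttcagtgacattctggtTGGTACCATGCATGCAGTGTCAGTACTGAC
43-75462: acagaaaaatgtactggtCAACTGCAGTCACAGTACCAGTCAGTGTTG
6-93034: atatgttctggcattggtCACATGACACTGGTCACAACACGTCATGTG
The barcodes of the 11 lineages with over 50% of their cells in cluster 6 had 11 different short parts. Any pair of them differed at 25 to 40 of the 48 bases. No other lineage of the untreated multiome library came closer to one of them than 14 differing bases.

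The first question was how large and how coherent the cluster was under either protocol. Its share was 15.2% (14.4 to 15.9) in the scATAC library and 14.7% (14 to 15.4) in the multiome library, and these intervals overlap. It held 13.4% and 14.3% of the cut sites of these libraries. The untreated libraries had 84615925 and 61629245 cut sites in peaks in 9361 and 9583 cells. No cell barcode of cluster 6 occurred in more than 1 library. After both untreated libraries were thinned to 9361 cells, 58.3% of the 30 nearest neighbours of a cluster 6 cell on the authors' UMAP were in cluster 6, which made up 15% of the thinned cells. The same value was higher for cluster 16, at 77.2%, and was 54.7% for cluster 2, 42.8% for cluster 4, 34.8% for cluster 14, 53.5% for cluster 9, 36.3% for cluster 3 and 23.5% for cluster 8. The clusters that supplied most of the remaining neighbours were cluster 3 with 10.4%, cluster 8 with 7.56% and cluster 4 with 7.22%, each less than its share of the thinned cells. Map and clusters both rest on the same reduced peak data, so these shares describe the map and are no evidence for the cluster.

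The protocols were mixed within the cluster to about the same degree as in clusters 3, 8 and 9. With 1411 cluster 6 cells of each library, 57.4% of the 30 nearest neighbours within the cluster came from a cell's own library, where complete mixing gives 50.0%. The value was 57.5% in cluster 8, 60.2% in cluster 3, 61.1% in cluster 9 and 71.2% in cluster 14. Clusters 2 and 4 were not part of this comparison and were split by protocol. Cluster 2 had 126 scATAC and 3311 multiome cells, and cluster 4 had 2921 and 92.

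On the map, cluster 6 formed a dense group in an arm and a scatter of cells along a trunk, and both regions were shared with the other untreated clusters. The limits of -2 and 2 on the first UMAP axis used to describe this were chosen after the map was seen. Above 2, in the arm, lay 59.4% (56.8 to 62.0) of the cluster 6 cells of scATAC and 49.6% (47.0 to 52.3) of those of the multiome library. Below -2, at the far end of the trunk, lay 20.7% and 24.5%, and the middle held 19.9% and 25.9%. Of all untreated cells above 2, 25.1% (scATAC) and 22.6% (multiome) belonged to cluster 6. In the arm a cluster 6 cell had on average 89.0% (scATAC) and 89.3% (multiome) of its neighbours in the cluster. At the far end these means were 18.5% and 18.6%, with medians of 16.7% in both libraries. Cluster 6 made up 14.3% (scATAC) and 15.9% (multiome) of all untreated cells at the far end, close to its share of either library.

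**Figure D1:**
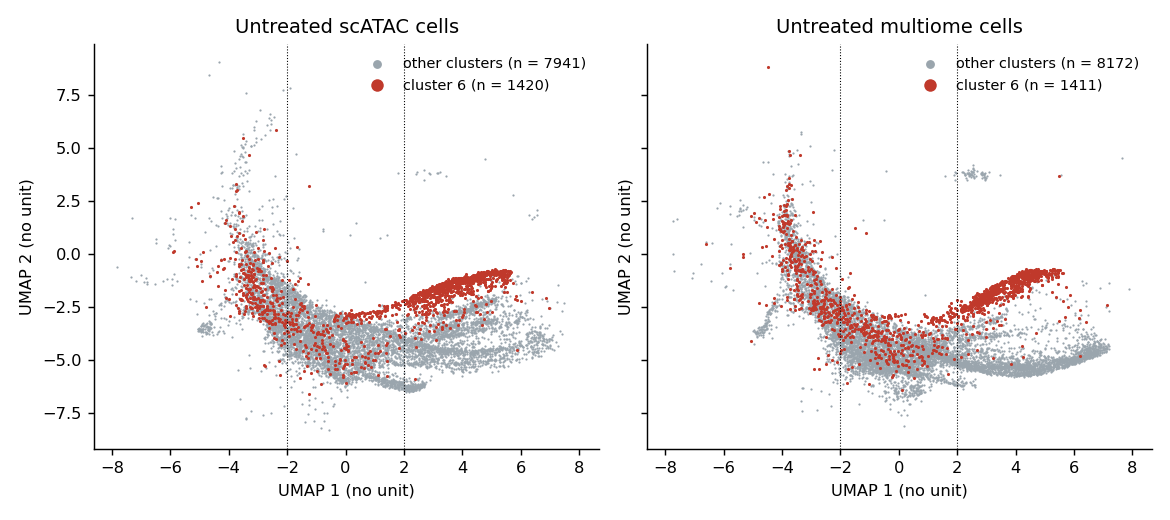
Positions of untreated cells on the authors' UMAP (both axes without unit), scATAC left and multiome right, with cluster 6 in red, other clusters in grey and dotted lines at -2 and 2 on the first axis. In both libraries the red cells form 1 dense group in the arm on the right, with 844 and 700 cells, and a scatter along the trunk on the left.

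Depth moved with the position on the map. Among the 25% of cluster 6 cells with the fewest cut sites, 16.3% (12.6 to 20.6) of the scATAC cells and 5.67% (3.49 to 8.61) of the multiome cells lay in the arm. Among the 25% with the most, 93.0% (89.8 to 95.4) and 87.3% (83.3 to 90.5) did. The classes in between lay in order, at 54.1% and 74.3% in scATAC and 38.1% and 67.4% in the multiome library. Arm cells had a median of 8198 cut sites in scATAC and 7061.5 in the multiome library, and cells at the far end 3510.5 and 2436. The other untreated cells showed the same course, with medians of 12671 (scATAC) and 8240 (multiome) cut sites above 2 and 4069 and 2777 below -2. Position and depth were thus tied together in both protocols, in cluster 6 as in the other cells.

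The membership of the cluster depended less on depth than the position of its cells. In scATAC, cluster 6 held 19.1% (17.4 to 21) of the shallowest and 11.2% (9.77 to 12.7) of the deepest of 5 equal depth classes of the library. In the multiome library the corresponding shares were 16.9% (15.3 to 18.7) and 13.7% (12.2 to 15.3), whose intervals just overlap. The scATAC shares were lower with each class, and the end classes differed by more than counting error. The multiome shares of the 3 deepest classes lay between 13.5% and 14.4%.

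**Figure D2:**
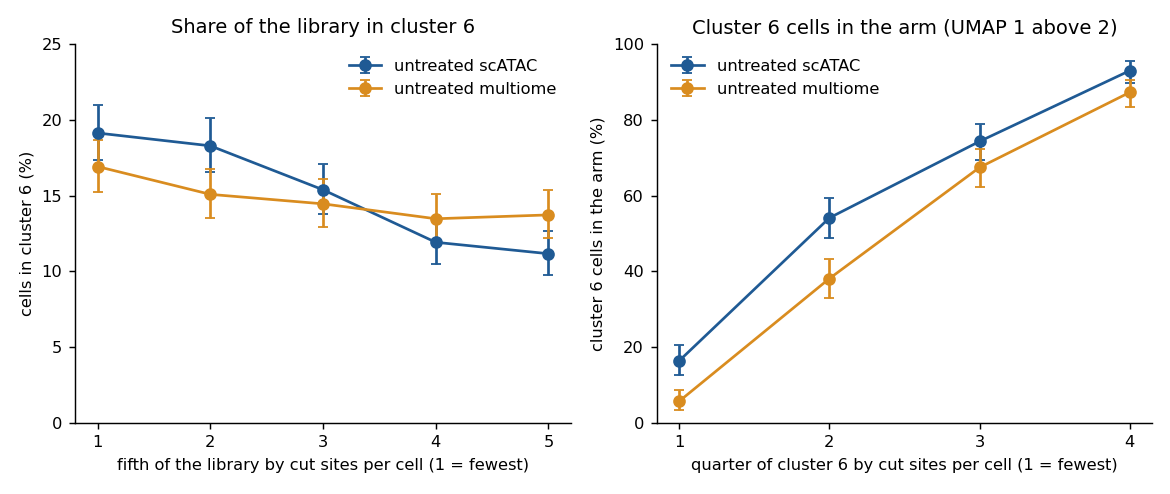
Left, share of each untreated library in cluster 6 (%) in 5 equal classes of cut sites per cell; right, share of cluster 6 cells in the arm (%) in 4 equal classes of cut sites within the cluster; bars are exact 95% intervals. The arm share climbs from 16.3% to 93.0% in scATAC and from 5.67% to 87.3% in the multiome library.

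Each cell's accessibility was then compared with that of the other untreated cells of the same library. Cluster 6 cells were shallower in both protocols. The median was 6438 cut sites (quartiles 4284.75 and 9889) in cluster 6 and 7663 (4927 and 11631) in the other untreated scATAC cells, a difference of -16.0%. In the multiome library it was 4966 (3284 and 7687) and 5265 (3540 and 8068.25), a difference of -5.68%. Of the cluster 6 cells, 37.6% (35.1 to 40.2) in scATAC and 45.7% (43.1 to 48.4) in the multiome library lay above the median of the other cells, where 50% means no shift. Peaks detected followed the depth: the medians of 5762.5 (scATAC) and 4575 (multiome) peaks differed from those of the other cells by -14.9% and -5.36%. Against other cells weighted to the same depth, they differed by -0.629% and 0.0875%.

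The nucleosome signal is the ratio of fragments that span 1 nucleosome to shorter, nucleosome-free fragments, so that a low value means that more of the cell's fragments come from DNA without a nucleosome. It was lower in cluster 6 than in the rest of both libraries. The multiome median was 0.846 (quartiles 0.775 and 0.935) in cluster 6 and 0.920 (0.827 and 1.02) in the other cells, and 27.6% (25.3 to 30.1) of the cluster 6 cells lay above the latter. The scATAC medians were 1.04 (0.961 and 1.12) and 1.07 (0.989 and 1.17), with 38.4% (35.8 to 41.0) above. The direction was the same in each of the 5 depth classes of both libraries, with differences of -0.051 to -0.082 in the multiome library and -0.022 to -0.045 in scATAC. The quartiles of cluster 6 and of the other cells overlapped throughout.

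Much of this shift depended on which cells served for comparison. Clusters 2 and 4, the largest of the untreated clusters in the multiome and scATAC libraries, had high nucleosome signals, with medians of 0.983 in multiome cluster 2 and 1.14 in scATAC cluster 4. Against clusters 3, 8 and 9 only, 40.3% of the multiome cluster 6 cells lay above the median, and in scATAC 51.6% (49.0 to 54.2), so that the scATAC shift was gone against these clusters. They are not the 3 nearest on the map, where clusters 4 (7.22% of neighbours) and 2 (5.58%) supplied more than cluster 9 (4.57%). The set leaves out clusters 2 and 4 with their high signals and includes cluster 9, the lowest in scATAC. Among the 9 clusters with at least 50 multiome cells, cluster 6 had the lowest median. Among the 8 such clusters of scATAC its median of 1.04 had rank 4 from the lowest, behind clusters 9, 16 and 8 at 1.02, 1.03 and 1.03.

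The gene activity total, which sums a cell's signal over genes, was low in relation to its cut sites in peaks. The median ratio was 0.942 (quartiles 0.912 and 0.976) in multiome cluster 6 and 0.983 (0.943 and 1.03) in the other multiome cells. In scATAC it was 0.953 (0.922 and 0.989) and 0.977 (0.940 and 1.02). Only 21.1% (19.0 to 23.3) of the multiome and 31.9% (29.5 to 34.4) of the scATAC cluster 6 cells lay above the median of the other cells. Cluster 6 had the lowest median of all clusters with at least 50 cells in both libraries, but the next lowest, cluster 9, was near it, at 0.949 in the multiome library and 0.956 in scATAC. Against clusters 3, 8 and 9 the shares rose to 37.2% and 46.2%, both below 50% by more than counting error.

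**Figure D3:**
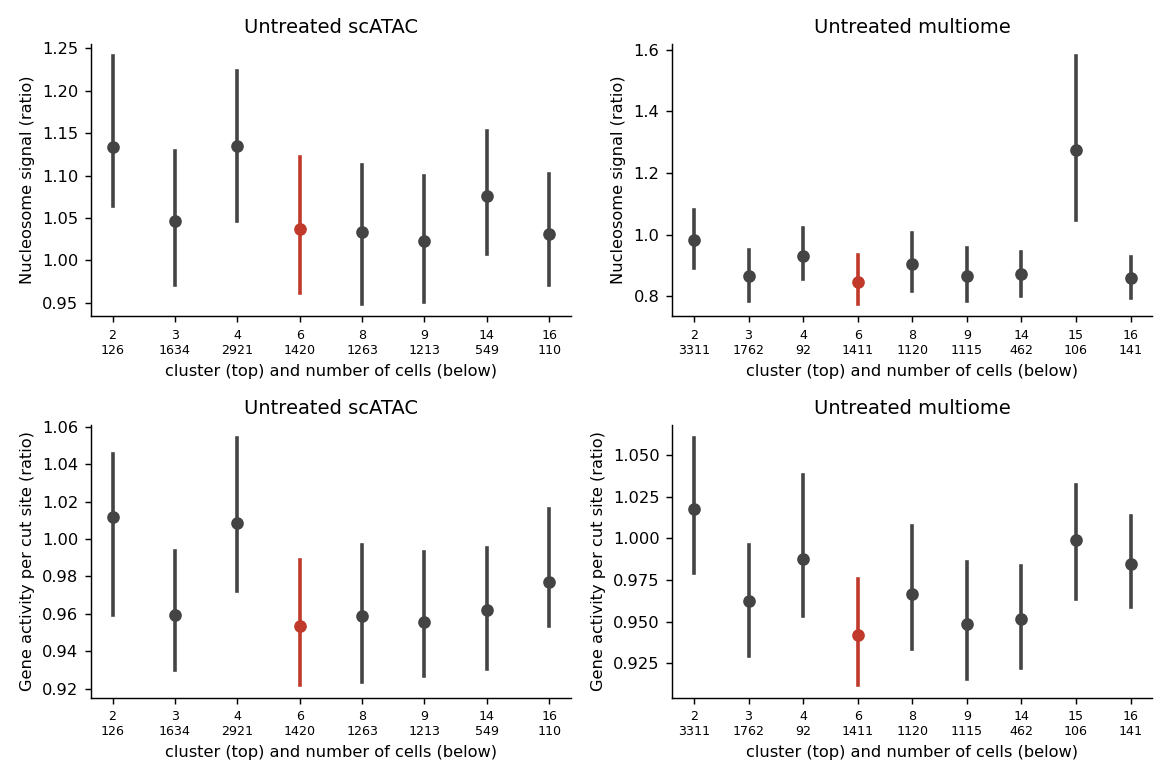
Median (point) and quartiles (bar) over cells of the nucleosome signal (top) and of the gene activity total per cut site in peaks (bottom), both ratios, for each cluster with at least 50 cells in the untreated scATAC (left) and multiome (right) library, cluster 6 in red; the vertical axes do not start at 0. Cluster 6 has the lowest median gene activity per cut site in both libraries, and its quartiles for this measure overlap those of every other cluster shown except multiome cluster 2.

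In the arm these differences were larger. The medians of cluster 6 itself were nearly the same there as in the whole cluster, and those of the comparison cells were higher. Multiome cluster 6 cells in the arm had a median gene activity of 0.942 per cut site, and the other multiome cells above 2 on the first axis had 1.03, so that 4.71% (3.27 to 6.56) of the former lay above the median of the latter. The medians of the nucleosome signal were 0.850 and 0.998, with 11.7% above. In scATAC the arm medians were 0.953 and 0.993 for gene activity and 1.04 and 1.1 for the nucleosome signal. Of the other multiome cells in this part of the map, 1754 belonged to cluster 2, whose median gene activity there was 1.04. Of the other scATAC cells in the arm, 1063 belonged to cluster 4, with medians of 1.03 for gene activity and 1.16 for the nucleosome signal. Multiome clusters 8 and 15 had 1.01 there. Clusters 9, 14 and 3 were nearer to cluster 6, at 0.967, 0.968 and 0.982 in the multiome library and 0.959, 0.966 and 0.971 in scATAC. Cluster 9, with 58 multiome cells there, had a nucleosome signal of 0.861, close to that of cluster 6. In scATAC the 202 cluster 9 cells there had 1.03, below the 1.04 of cluster 6.

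Enrichment of cuts at transcription start sites, a measure of how far cuts concentrate at promoters, hardly differed between cluster 6 and the other cells. Its median was 5.02 in cluster 6 and 4.99 in the other cells of scATAC, and 5.02 and 5.01 in the multiome library. The shares of cluster 6 cells above the median of the other cells were 52.6% (49.97 to 55.2) and 50.4% (47.7 to 53). Both intervals include 50%, the scATAC one only just. With doublet, multiplet and unmapped cells left out, which removed only 1 scATAC cell, the scATAC interval was 50.01 to 55.3 and just excluded it.

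Lineage barcodes were not an input of the clusters and tell which families made up cluster 6. They could be read in the multiome library, where 700 of the 1411 cluster 6 cells (49.6%, 47.0 to 52.3) had a single called barcode, against 49.8% of the other cells. Cells called doublet or multiplet, which hold more than 1 barcode, were 6.38% (5.16 to 7.78) of cluster 6 and 9.48% (8.86 to 10.1) of the other multiome cells. The cells called unmapped were 15 in cluster 6 (1.06%, 0.596 to 1.75) and 41 in the other multiome clusters (0.502%, 0.360 to 0.680). They were deep in both. In cluster 6 their median was 20802 cut sites, against 4660 in the 606 cells without a barcode call. In the other clusters the medians were 16067 and 4756.5.

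Few lineages made up a large part of the cluster. The 700 cells belonged to 170 of the 484 lineages of the library. The effective number of lineages, the inverse of the chance that a pair of different cells shares a barcode, was 20.4 in cluster 6, compared with 24.9 in cluster 9, 36.4 in cluster 8, 71.3 in cluster 2, 80.3 in cluster 3 and 121 in the whole library. Cluster 14 had 3.15. Drawn down to 247 barcoded cells, the number in cluster 14, cluster 6 would show 91.3 distinct lineages on average, cluster 9 93.9 and cluster 3 140. Lineage 50-60095 alone had 13.4% of the barcoded cluster 6 cells, and the 3 largest lineages together had 35.0% (31.5 to 38.7).

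Of the 125 lineages with at least 10 cells in the untreated multiome library, 11 had over 50% of their cells in cluster 6, which is 8.8% of the lineages. They were chosen by that share, so their shares are a description. For comparison, 52 lineages (41.6%) had over 50% in cluster 2, 17 (13.6%) in cluster 3, 14 (11.2%) in cluster 8, 9 (7.2%) in cluster 9 and 2 (1.6%) in cluster 14. The 11 lineages had 379 of their 505 cells (75.05%, 71 to 78.8) in cluster 6 and accounted for 54.1% (50.4 to 57.9) of its barcoded cells.

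Lineage 50-60095 had 94 of 112 cells in cluster 6 (83.9%, 75.8 to 90.2). Lineage 30-58918 had 86 of 97 (88.7%, 80.6 to 94.2), the highest share of the 11. Lineage 55-68976 had 65 of 76 (85.5%, 75.6 to 92.5). These 3 lineages kept the cluster at any depth, with 86.7% of their cells in it in the shallowest of 3 equal depth classes of barcoded cells, 87% in the middle and 83.9% in the deepest class. Such shares were not particular to cluster 6. In lineages of 72 to 98 cells based in other clusters, the main cluster held from 70.7% (cluster 8) to 91.7% (cluster 2) of the cells.

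The next lineages were less tightly bound to the cluster. Lineage 6-94927 had 35 of 59 cells there (59.3%, 45.7 to 71.9) and lineage 21-28628 had 32 of 57 (56.1%, 42.4 to 69.3). The interval of 21-28628 lies below those of the 3 largest. Its most frequent other cluster was cluster 3, with 14 cells, whereas 6-94927 had 9 cells in cluster 2. The other 6 lineages (61-16851, 43-75462, 15-58202, 96-27973, 89-62622 and 37-46701) had 9 to 12 cells in cluster 6 and shares of up to 78.6%, all over 50% by choice.

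Most lineages were rare in cluster 6 and few were absent by more than counting error. Across all 125 lineages the median share in cluster 6 was 5.26%. Of these lineages, 38 had no cell there, and 24 had an interval wholly below the 14.7% of all barcoded cells. Only 13 had an interval above it, the 11 lineages and 2 others. For the 11 this followed from their choice, since over 50% of at least 10 cells always gives such an interval. Lineage 16-28768, with 7 of 14 cells, stood exactly at 50.0% and fell outside the choice. The lineages based elsewhere with most cells in the cluster were 22-14328, with 18 of its 182 cells (9.89%, 5.97 to 15.2) and 76.4% in cluster 14, and 2-46691 and 52-92557, with 7 cells each (17.1% and 10.1%). The 359 lineages of fewer than 10 cells had 12.6% (10.7 to 14.7) of their cells in cluster 6.

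**Figure D4:**
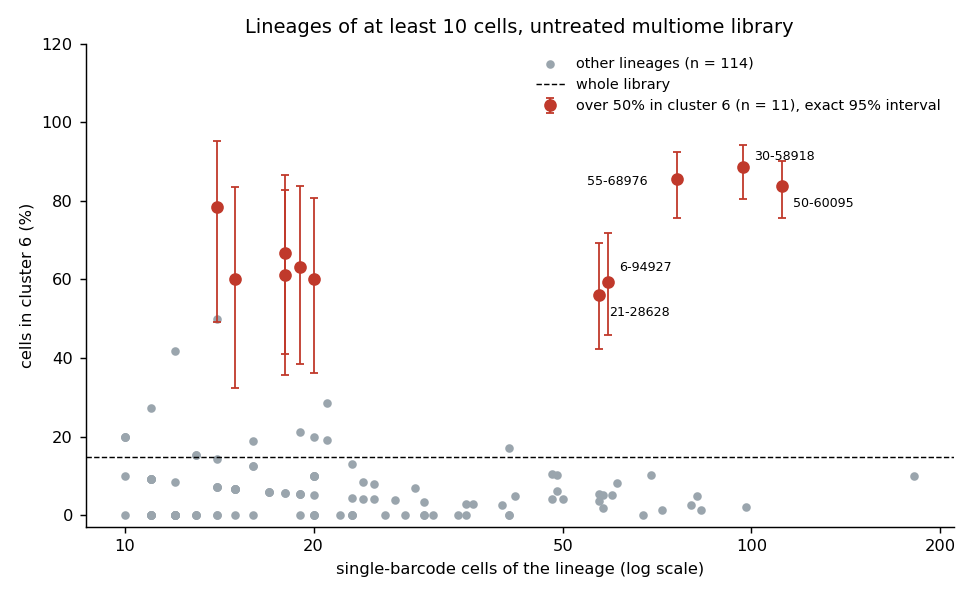
Share of each lineage's cells in cluster 6 (%) against its number of single-barcode cells (log axis) for the 125 lineages of at least 10 cells in the untreated multiome library; red points are the 11 lineages over 50%, with exact 95% intervals, and the dashed line is the 14.7% of the whole library. The 3 largest red lineages lie at 83.9% to 88.7%. That red points lie above grey ones follows from the choice of lineages over 50%.

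Lineages were spread unevenly over the cluster. In the arm 65.4% (60.2 to 70.4) of the 350 barcoded cluster 6 cells came from the 11 lineages, in the middle 53.2% (45.8 to 60.4), and at the far end 30.6% (23.6 to 38.4) of 160 cells. The 3 largest had 52.0%, 23.2% and 11.9% of these cells. Lineages 50-60095 and 30-58918 had 79.8% and 81.4% of their cluster 6 cells in the arm, 55-68976 had 56.9%, 6-94927 42.9% and 21-28628 28.1%. The median depth of their cluster 6 cells, in the same order, was 4904.5, 6215.5, 4607, 4879 and 5367 cut sites, and its part in the spread over the arm was not tested. Among all barcoded cluster 6 cells, the share from the 11 lineages was 49.8% in the shallowest, 61.2% in the middle and 51.9% in the deepest of the 3 depth classes, with no steady course.

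Within the arm, members of a lineage lay only slightly closer to each other than its composition gives. Of the 10 nearest barcoded neighbours of an arm cell 12.0% had its own barcode, and random pairs of arm cells shared one in 10.0% of cases. Over the whole cluster the values were 8.11% and 4.90%.

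The accessibility measures were then compared inside and outside cluster 6 for the same lineages. In cluster 6, cells of the 11 lineages had a median nucleosome signal of 0.849 (n = 379) and cells of all other lineages 0.836 (n = 321), and the gene activity per cut site was 0.940 and 0.943. The cells of the 11 lineages that lay outside cluster 6 had medians of 0.948 and 0.985 (n = 126), nearer to the 0.917 and 0.982 of other lineages outside it (n = 3946). Of these 126 cells, 49 lay in cluster 2, 38 in cluster 3 and 11 in cluster 15, and 7 of the latter were cells of 30-58918. The level outside differed between these clusters. The cells of the 11 lineages had a median nucleosome signal of 0.989 in cluster 2 and of 0.897 in cluster 3, nearer to the 0.849 inside cluster 6, and all 106 multiome cells of cluster 15 had one of 1.27.

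Lineage by lineage, the nucleosome signal was lower inside in the lineages chosen for cluster 6 and went in both directions in the others. Of the 11 lineages, 10 had at least 5 cells on both sides, and in 10 of 10 both the nucleosome signal and the gene activity per cut site were lower inside cluster 6. For the nucleosome signal the lineage medians were 0.788 to 0.906 inside and 0.916 to 1.05 outside, ranges that do not overlap. For gene activity they were 0.925 to 0.962 inside and 0.963 to 1.01 outside. Lineage 30-58918 had medians of 0.821 inside and 1.04 outside for the nucleosome signal, and 21-28628 had the least difference, 0.897 and 0.916. Depth moved the same way, since the cells outside were deeper in all 10 lineages. Within the 3 depth classes, the pooled cells of the 11 lineages had nucleosome signals of 0.832 and 0.928 inside and outside in the shallowest class, 0.874 and 0.969 in the middle and 0.842 and 0.953 in the deepest. Of 9 other lineages with at least 5 cells on both sides, 4 had a lower nucleosome signal inside, with a median difference (inside minus outside) of 0.0119, and 7 a lower gene activity per cut site, with as few as 5 cells inside. Of the 9, those found mainly in cluster 2 or 8 had nucleosome differences of -0.159, -0.0444 and -0.133. Those mainly in cluster 3, 9 or 14 had 0.0625, 0.0119, 0.0191 and -0.02, and the rest, most frequent in cluster 6 itself, 0.0172 and 0.012. The direction may thus go with the cluster of the outside cells, which was not tested. Gene activity is counted from the same fragments as the peaks that defined the cluster, so the ratio is not independent of it.

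**Figure D5:**
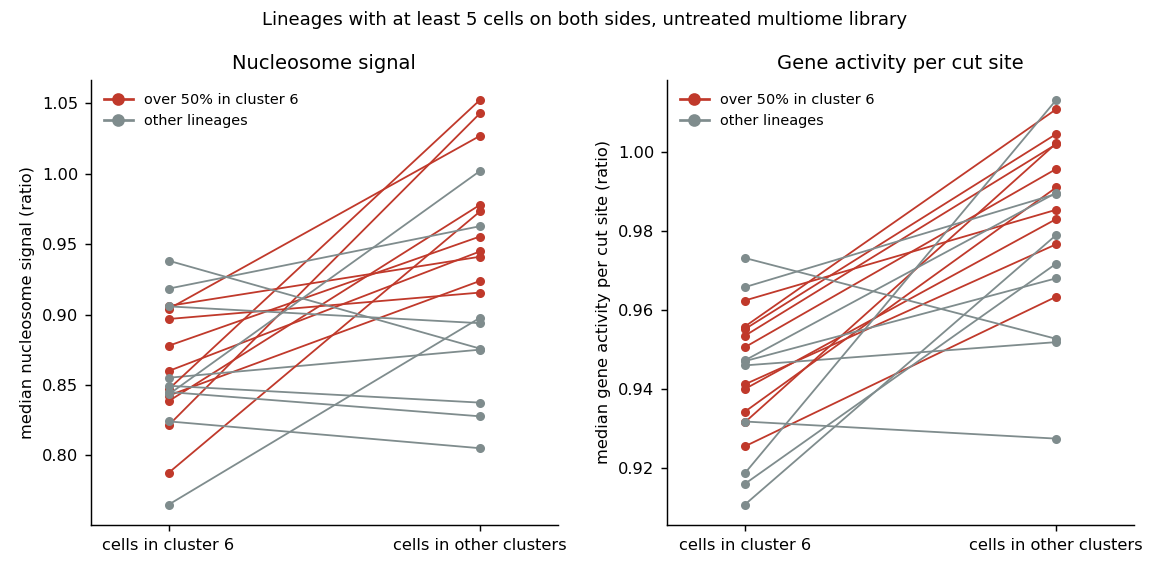
Median nucleosome signal (left) and gene activity per cut site (right), both ratios, of the cells of 1 lineage inside and outside cluster 6, 1 line per lineage, for the 19 lineages with at least 5 cells on both sides in the untreated multiome library; the vertical axes do not start at 0. All 10 red lines, lineages with over 50% in cluster 6, rise from inside to outside in both panels, whereas the grey lines run in both directions.

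The scATAC library allowed a small check of the lineages in cells that had not been used to choose them. Only 29 untreated scATAC cells (0.310%) had a single called barcode. Of these, 7 carried a barcode of the 11 lineages, namely 3 of 30-58918, 2 of 55-68976 and 1 each of 6-94927 and 89-62622. None of the 7 lay in cluster 6, and a count of 0 allows up to 42.9%, below the 75.05% of the multiome cells. The 3 cells of 30-58918 lay in clusters 4 (2 cells) and 9, and those of 55-68976 in clusters 4 and 14. The library's share of cluster 6 alone would give 1.06 of 7 cells. Another 7 barcoded scATAC cells did lie in cluster 6, and none carried a barcode of the 11 lineages. Among them was 1 cell each of 92-83570, 47-43673, 95-65716 and 29-67687. In the multiome library these lineages had 85.1%, 87.7%, 79.5% and 75% of their cells in clusters 9, 2, 2 and 8. The scATAC calls thus departed from the multiome placement for other lineages too. The link between lineage and cluster 6 thus rests on the multiome library and was not seen in the scATAC calls.

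After eribulin the 11 lineages made up little of the barcoded cells. The 11 lineages had 10.6% (9.72 to 11.5) of the barcoded untreated multiome cells and 2 of the 1391 barcoded eribulin multiome cells (0.144%, 0.0174 to 0.518). The other 114 lineages of at least 10 untreated cells had 672 of these 1391 cells (48.3%, 45.7 to 51). Most of the 672 were cells of 6-93034 (403 cells), 55-23349 (146) and 39-41529 (81), so few lineages gave most of this share. Before eribulin, the 125 lineages of at least 10 cells, the 11 included, had 3644 of the 4772 barcoded multiome cells. Both cells of the 11 lineages were of lineage 43-75462, and both lay in cluster 6. Among the 84 barcoded eribulin scATAC cells there were 0 of the 11 lineages, and this number of cells allows up to 3.57%. An eribulin multiome cell was found for 1 of the 11 lineages and for 17 of the other 114 of at least 10 untreated cells, shares of 9.09% (0.230 to 41.3) and 14.9% (8.93 to 22.8) with wide overlap, so the data do not show that lineages of cluster 6 were lost more often than others.

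Among the 5 lineages most frequent in the eribulin multiome library, 6-93034 had 5 of its 12 untreated cells in cluster 6 (41.7%, 15.2 to 72.3). Cluster 3 held 4 of the 12, too close a number to place the lineage. None of the 5 cells lay in the arm, and their median depth was 2573 cut sites. Lineage 55-23349 had 4 of 19 untreated cells in cluster 6. After eribulin 3 of the 403 cells of 6-93034 (0.744%, 0.154 to 2.16) lay in cluster 6, and 0 of the 146 cells of 55-23349, which allows up to 2.05%. Lineage 39-41529 had 1 of 40 untreated cells in the cluster, while 76-49517 and 95-33662 had only 2 and 6 untreated cells, none of them in it, too few to place these lineages. Of the 12 barcoded eribulin multiome cells of the cluster, the most from 1 lineage were 4 of the 46 cells of 55-98358 (8.7%, 2.42 to 20.8), and 2 were of the 438 cells of 76-49517 (0.457%). The 33 eribulin cells of the cluster were shallow, with medians of 3099 cut sites in scATAC and 3060.5 in the multiome library. Their median position on the first UMAP axis was -2.87 and -3.52, at the far end of the trunk, and their nucleosome signals of 0.769 and 0.668 lay below the 1.04 and 0.846 of untreated cluster 6 cells of the same protocol. Eribulin scATAC cells of other clusters without a barcode call had a nucleosome signal of 0.756, close to the 0.769 of the 7 cells.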

How the data were processed

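Accessible chromatin was measured in 4 libraries, 1 per condition and protocol. Per the series' design text, the authors made peak counts with cellranger-atac 1.2.0 (run 1) and cellranger-arc 1.0.0 (run 3) on mm10 and analysed them with Signac 1.1.1, keeping cells with 1000 to 75000 fragments in peaks, a nucleosome signal up to 10 and an enrichment at start sites of at least 2, among other limits. Clusters and UMAP used components 2 to 30 of a latent semantic indexing. Integration, barcode calling and the making of gene activity are not given in the sources used here. The deposited counts per cell are whole numbers of cut sites, peaks and gene activity, without normalization. The deposited nucleosome signal and start site enrichment are ratios, and UMAP positions, also as deposited, are a unitless score.

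Shares, medians, quartiles, neighbour shares and lineage shares were computed in Python 3.11.15 using scipy 1.17.1, numpy 2.4.6 and pandas 2.3.3, and plotted by matplotlib 3.10.9. Weighting to equal depth used 10 classes of cut sites set by the cluster 6 cells. A count of 0 was given the limit of 3 counts. Lineages were compared among cells with 1 called barcode, and doublet, multiplet and unmapped cells stayed in all other values. Named are lineages of at least 10 cells with over 50% of them in cluster 6, those based elsewhere with most cells in it, and the 5 most frequent after eribulin. Lineages of at least 10 cells that are based elsewhere and had a scATAC cell in cluster 6 are also named. Members, lists and alternatives were chosen with earlier results of these data known. The diversity, neighbour and depth calculations were tested on simulated data. Over 5 quantities of known size, the largest error was 2.03%. Alternatives were other comparison clusters, depth limits, equal depth, removal of doublets, other numbers of neighbours and other lineage limits.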

Additional observations from a re-analysis of the deposited data

Results flagged for a closer look

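The multiome and scATAC libraries differed in where the cells of the 11 lineages lay. In the multiome library 75.05% of their 505 cells were in cluster 6, above the 14.7% of the library, and in scATAC 0 of 7, below the 15.2% of the library. The multiome share was raised by the choice of these lineages on the same cells, and the difference between the libraries was not tested.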

How the results depend on the processing

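Of 54 alternative values, 36 stayed within the counting interval of the reported value (or within 1.5 times, for counts of lineages). Among them were all those that left out doublet, multiplet and unmapped cells, matched depth or kept cells of 3000 to 15000 cut sites. In scATAC, leaving out doublet, multiplet and unmapped cells removed only 1 cell, and 99.4% of cluster 6 and 99.7% of the other cells had no barcode call. Those scATAC values could hardly change, so they tell nothing about doublets. Values of measures are the share of cluster 6 cells above the median of the comparison cells. Against clusters 3, 8 and 9 the nucleosome signal gave 51.6% in scATAC, the other side of 50% from the reported 38.4%, and 40.3% in the multiome library, and gene activity per cut site gave 46.2% and 37.2%. Among cells above 2 on the first UMAP axis, an alternative chosen after seeing the data, cut sites gave 24.3% (scATAC) and 40.7% (multiome), the nucleosome signal 33.4% and 11.7%, and gene activity per cut site 21.1% and 4.71%. The 11 lineages based in cluster 6 (8.8% of 125) became 21 of 212 (9.91%) with a minimum of 5 cells, 6 of 63 (9.52%) with a minimum of 20, 6 of 70 (8.57%) among cells of at least 5000 cut sites and 6 of 38 (15.8%) above 2 on the first axis; their part of the barcoded cluster 6 cells, 54.1% as reported, was 60.7%, 46.3%, 47.5% and 62.0% in this order. The share of lineages lay between 8.57% and 9.91% under the limits on cells or cut sites. Above 2 on the first axis it was higher, at 15.8%. No paired analysis was possible because each group is 1 library and no result comes from a test.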
